A study of Mus musculus with 2 samples.

Results

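The genes described here are 10 regulators of mitochondrial biogenesis: Ppargc1b, Esrra, Nrf1, Gabpa, Tfam, Tfb1m, Tfb2m, Polrmt, Polg and Twnk. They were chosen by name, by matching each symbol to the deposited gene table, and all 10 were found among its 18987 genes. RNA sequencing compared 1 library of RAW264.7 cells carrying an shRNA against Cpeb4 with 1 library of RAW264.7 cells carrying a control shRNA. RAW264.7 is an established macrophage line from mouse that turns into osteoclasts, the cells that resorb bone, under the cytokine RANKL. Seeding was at 7500 cells per cm2 for both groups, RANKL at 100 ng/ml was added 24 h afterwards to both, and cells were profiled 3 days after RANKL according to the title of the series. Cpeb4 encodes an RNA-binding protein that recognises cytoplasmic polyadenylation elements in mRNA. The labels give the host cells as one line and do not say whether the shRNA cells were a clone or a pool, nor give the shRNA sequences.

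Mitochondria are built from parts encoded in both the nucleus and the mitochondrial DNA, and these regulators link these sources. PGC-1β, the product of Ppargc1b, is a coactivator that works with the nuclear receptor ERRα (Esrra) and with the transcription factors nuclear respiratory factor 1 (Nrf1) and GABP, whose DNA-binding subunit is Gabpa. They switch on nuclear genes for respiration and for the factors that copy and transcribe mitochondrial DNA. Mature osteoclasts are rich in mitochondria, and in mice PGC-1β is known to be needed for normal osteoclast function.

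With 1 library per group there was no test, and no difference below has a replicate check. The values compare these 2 libraries. Levels are given as CPM, counts relative to a TMM-scaled library total, a scaling that assumes most genes do not differ. A ratio is the log2 of the Cpeb4 shRNA level over the control level, and its 95% counting interval is an exact Clopper-Pearson interval that covers counting error only. Total counts were 119350322 in the Cpeb4 shRNA library and 79399680 in the control library. Cpeb4 itself was lower in the library labelled with its shRNA, at 104 CPM against 345 CPM in the control library. The osteoclast markers were lower in the Cpeb4 shRNA library (9 of 10 at least 2-fold, summed level 11299 CPM against 49814 CPM) and the proliferation markers higher (10 of 10 at least 2-fold, 2176 CPM against 178 CPM). The lowest osteoclast markers were Oscar (-3.82) and Calcr (-3.49), and the highest were Ocstamp (-1.37) and Nfatc1 (-0.05, above 0 under total-count scaling). The highest proliferation markers were Mki67 (5.03) and Aurkb (4.90), and the lowest were Mcm2 (3.15) and Pcna (2.18). Of 8 macrophage markers 5 passed the filter, 1 above 0 and 4 below by TMM scaling (2 above and 3 below under total-count scaling). They were Lyz2 (11.4 CPM with Cpeb4 shRNA against 5.71 CPM with control shRNA), Ptprc (157 against 173 CPM), Itgam (38.8 against 52.8 CPM), Csf1r (1790 against 2736 CPM) and Cd68 (570.3 against 1174 CPM). Adgre1, which encodes F4/80, was near 0 in both, at 0.781 and 0.164 CPM, Fcgr1 was at 0.147 and 1.20 CPM, and Mertk is not analysed here. Of 12 markers of other cell types 4 were listed and 0 reached a mean of 1 CPM. All differences among the regulators therefore stand beside a difference in osteoclast and proliferation markers, whose part in them was not tested. In bulk RNA, fewer cells of a type and less RNA per cell cannot be told apart.

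Sequences are shown first, because the regulators are known to act on one another's promoters. RefSeq promoters on GRCm38.p6, 250 bases before to 50 after the start, were at hand for 9 of the 10 genes, with 2 starts each for Nrf1 and Twnk. They were searched on both strands for the letters AAGGTCA (the core of the ERR element), GCGCNTGC (the core of the NRF1 site) and CCGGAAG (the core of the GABP site). The 4 stretches below hold the genes with the lowest ratio (Esrra), the highest ratio (Twnk, its second start) and the pair with ratios nearest 0 (Polrmt and Tfb2m). Each is 156 bases long and runs 5′ to 3′ along the gene's own strand, ending 20 bases after the start. Capitals mark the NRF1 and GABP letters on either strand.

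Esrra, chr19:6921788-6921943, minus strand: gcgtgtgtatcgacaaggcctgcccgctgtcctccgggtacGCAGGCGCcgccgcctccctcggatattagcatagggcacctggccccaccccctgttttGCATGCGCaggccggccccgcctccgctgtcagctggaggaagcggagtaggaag
Twnk, chr19:45006423-45006578, plus strand: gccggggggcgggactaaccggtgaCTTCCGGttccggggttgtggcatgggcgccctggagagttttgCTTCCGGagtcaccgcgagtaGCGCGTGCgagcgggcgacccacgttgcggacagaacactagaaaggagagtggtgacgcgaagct
Polrmt, chr10:79746561-79746716, minus strand: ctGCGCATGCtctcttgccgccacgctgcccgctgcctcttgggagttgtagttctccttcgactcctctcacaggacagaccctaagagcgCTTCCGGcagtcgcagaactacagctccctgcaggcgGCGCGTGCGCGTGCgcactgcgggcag
Tfb2m, chr1:179546256-179546411, minus strand: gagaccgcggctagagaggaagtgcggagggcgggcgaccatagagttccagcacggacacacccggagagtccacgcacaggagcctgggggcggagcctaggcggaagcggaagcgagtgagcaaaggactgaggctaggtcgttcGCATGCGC

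The NRF1 letters were found in the promoters of 4 of the 9 genes (Esrra, Polrmt, Tfb2m and Twnk), against 9.61% of the 32851 promoters in the table. In Esrra they began 94 and 34 bases before the start. Polrmt held them 3 times, of which 2 overlap at the start itself. The GABP letters were found in 5 of the 9 genes (Tfam, Polg, Polrmt, Twnk and Gabpa), against 8.86% of all promoters. Short sites of 30 bases are given for the 3 that are not printed above, with the GABP letters in capitals.

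Tfam, chr10:71238073-71238102, minus strand: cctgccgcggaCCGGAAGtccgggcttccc
Polg, chr7:79466293-79466322, minus strand: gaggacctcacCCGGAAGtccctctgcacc
Gabpa, chr16:84835020-84835049, plus strand: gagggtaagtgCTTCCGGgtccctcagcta

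The ERR element letters were found in 1 of the 9 genes, at the first start of Twnk, against 4.72% of all promoters. That start held no NRF1 or GABP letters. Nrf1, at either start, and Tfb1m held none of the letters searched for. The counts are of genes and the percentages of single promoters, and a gene with 2 starts had 2 windows. These are matches of letters, not measured binding.

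**Figure D1:**
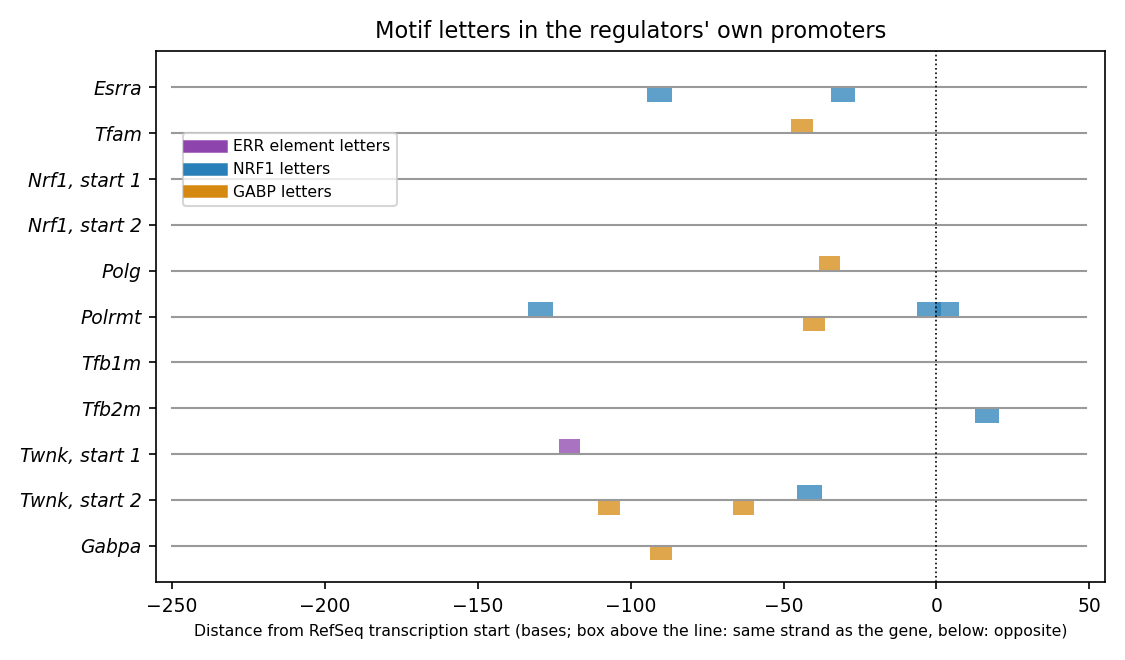
Positions of the ERR element, NRF1 and GABP letters in the 11 RefSeq promoters of 9 regulators, as distance in bases from the transcription start (boxes above a line lie on the gene's strand, boxes below on the other). Polrmt holds 3 NRF1 and 1 GABP match, and the second start of Twnk holds 1 NRF1 and 2 GABP matches.

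Across the 10 regulators the coactivator and its nuclear receptor were lower in the Cpeb4 shRNA library under each scaling, while Nrf1, Tfam, Tfb1m and Twnk were higher. Gabpa and Polg were higher by TMM scaling, but lay at only 0.03 and 0.02 when scaled to reference genes. By TMM scaling 7 of the 10 had a ratio above 0 and 3 below, with a median of 0.43, beside a median of 0.05 over the 12086 genes that averaged 1 CPM or more, a filter that all 10 regulators passed. At least 2-fold differences were few: 1 regulator was higher (Twnk), 0 were lower and 9 lay within 2-fold. Among all genes past the filter, 14.6% were higher by that rule and 11.8% were lower. At 1.5-fold, 4 regulators were higher (Twnk, Tfb1m, Nrf1 and Tfam) and 2 lower (Esrra and Ppargc1b), where 26.4% of all genes were higher and 22.1% lower. The ratios ran from -0.84 for Esrra to 1.16 for Twnk. Under each of 7 alternatives (5 scalings, thinning and a correction for GC content and length) 8 of the 10 genes kept their sign. The exceptions were Polrmt and Tfb2m. DESeq2 scaling, upper-quartile scaling and scaling without mitochondrially encoded genes shifted every ratio by only -0.015, -0.036 and -0.001. The smallest ratio in size was 0.07 (Polrmt), so these scalings could not change a sign.

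Ppargc1b (ENSMUSG00000033871; mm10 chr18:61298136-61400431, minus strand) encodes PGC-1β. It reached 75.2 CPM with Cpeb4 shRNA (9724 counts) and 127 CPM with control shRNA (9303 counts). The level was 40.8% lower in the Cpeb4 shRNA library, with a log2 ratio of -0.76 (counting interval -0.80 to -0.72). It shared no exon bases with another annotated gene.

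Esrra (ENSMUSG00000024955; chr19:6910977-6921813, minus strand) encodes ERRα, a nuclear receptor that binds DNA and works with PGC-1 coactivators. It reached 104 CPM with Cpeb4 shRNA (13420 counts) and 186 CPM with control shRNA (13638 counts). The log2 ratio of -0.84 (-0.88 to -0.81) was the lowest of the 10 by TMM scaling, a 1.80-fold lower level. With the trend of GC content and length removed, Esrra lay at -0.59 and Ppargc1b at -0.60. It shares 1.66% of its exon bases with Trmt112 on the opposite strand, which had 9012 counts with Cpeb4 shRNA and 1916 with control shRNA. The receptor and its coactivator were thus lower by similar amounts: there were 0.725 Ppargc1b counts per Esrra count in the Cpeb4 shRNA library and 0.682 in the control library, ratios that differed by 1.06-fold (counting interval 1.02 to 1.10).

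Nrf1 (ENSMUSG00000058440; chr6:30047988-30153458, plus strand) encodes nuclear respiratory factor 1, an activator of respiratory chain genes and of Tfam. It reached 32.5 CPM with Cpeb4 shRNA (4211 counts) and 20.1 CPM with control shRNA (1472 counts). Its log2 ratio was 0.70 (0.61 to 0.78), in the opposite direction to Ppargc1b and Esrra. Gabpa (ENSMUSG00000008976; chr16:84834925-84863779, plus strand) encodes the ETS-family subunit of GABP, also called NRF-2. It reached 86.1 CPM with Cpeb4 shRNA (11146 counts) and 63.7 CPM with control shRNA (4663 counts), with a log2 ratio of 0.44 (0.39 to 0.49) that was 0.03 when scaled to reference genes. Its exons share 6.98% of their bases with Atp5j on the opposite strand, which had 21438 counts with Cpeb4 shRNA and 17335 with control shRNA. Reads of such overlapping genes cannot be told apart without strand. Counts given for overlapping genes are not scaled, and the Cpeb4 shRNA library had the larger total, so they give no direction by themselves. By TMM scaling the 4 nuclear regulators therefore divided, with the coactivator and the receptor lower and both respiratory factors higher.

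**Figure D2:**
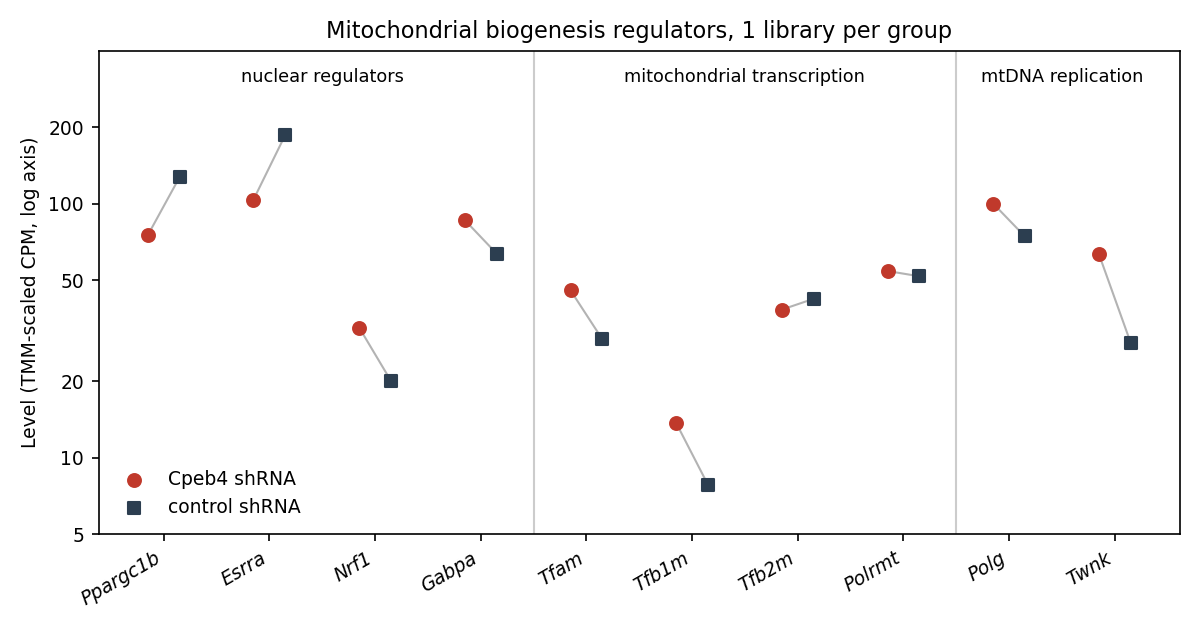
Level of each regulator in TMM-scaled CPM (log axis) in the Cpeb4 shRNA library (circles, left of each pair) and the control shRNA library (squares), 1 library per group, arranged by role. Ppargc1b and Esrra are lower in the Cpeb4 shRNA library (75.2 against 127 CPM and 104 against 186 CPM), and Twnk shows the steepest difference in the other direction (63.3 against 28.4 CPM).

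Of the 4 genes for mitochondrial transcription, Tfam and Tfb1m were higher in the Cpeb4 shRNA library and Polrmt and Tfb2m nearly level by TMM scaling. Tfam (ENSMUSG00000003923; chr10:71225464-71238280, minus strand) encodes the protein that packages mitochondrial DNA and bends its promoters. It reached 45.6 CPM with Cpeb4 shRNA (5900 counts) and 29.3 CPM with control shRNA (2147 counts). The level was 1.56-fold higher in the Cpeb4 shRNA library, with a log2 ratio of 0.64 (0.57 to 0.71).

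Tfb1m and Tfb2m are paralogs that descend from rRNA methyltransferases. Tfb1m now acts mainly as the methyltransferase of the small mitochondrial ribosomal RNA, and Tfb2m as the factor that opens the promoter for the polymerase. Tfb1m (ENSMUSG00000036983; chr17:3519256-3557781, minus strand) reached 13.7 CPM with Cpeb4 shRNA (1772 counts) and 7.84 CPM with control shRNA (574 counts). Its log2 ratio was 0.81 (0.67 to 0.94), with the widest counting interval of the 10 as it had the fewest counts. It shares 3.94% of its exon bases with Tiam2 on the opposite strand, which had 2205 counts with Cpeb4 shRNA and 4438 with control shRNA. Tfb2m (ENSMUSG00000026492; chr1:179528055-179546267, minus strand) reached 38.3 CPM with Cpeb4 shRNA (4956 counts) and 42.2 CPM with control shRNA (3092 counts). Its log2 ratio was -0.14 (-0.21 to -0.08), and it was 0.09 under total-count scaling. The paralogs differed from each other whatever the scaling, with 0.358 Tfb1m counts per Tfb2m count in the Cpeb4 shRNA library and 0.186 in the control library, a 1.93-fold difference (1.74 to 2.14).

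Polrmt (ENSMUSG00000020329; chr10:79736123-79746581, minus strand) encodes the RNA polymerase of mitochondria. It reached 54.3 CPM with Cpeb4 shRNA (7029 counts) and 51.8 CPM with control shRNA (3794 counts). The log2 ratio of 0.07 (0.01 to 0.13) was the smallest in size among the 10, and it was -0.34 when scaled to reference genes. No direction can be given for Polrmt or Tfb2m, since each changes sign with the scaling.

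Both genes for mitochondrial DNA replication were higher in the Cpeb4 shRNA library by TMM scaling. Polg (ENSMUSG00000039176; chr7:79446231-79466362, minus strand) encodes the catalytic subunit of the mitochondrial DNA polymerase. It reached 100.1 CPM with Cpeb4 shRNA (12949 counts) and 74.3 CPM with control shRNA (5441 counts), with a log2 ratio of 0.43 (0.38 to 0.48) that was 0.02 when scaled to reference genes. Polg shares 8.57% of its exon bases with the DNA repair gene Fanci on the opposite strand. Fanci had 1478 counts in the Cpeb4 shRNA library against 26 in the control library.

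Twnk (ENSMUSG00000025209; chr19:45005663-45012762, plus strand) encodes Twinkle, the helicase that unwinds mitochondrial DNA ahead of the polymerase. It reached 63.3 CPM with Cpeb4 shRNA (8193 counts) and 28.4 CPM with control shRNA (2080 counts). This was the largest ratio of the 10, a 2.23-fold higher level (log2 ratio 1.16, counting interval 1.09 to 1.23), and it ranked above 88.4% of all genes past the filter. Its exons share 12.6% of their bases with Mrpl43 on the opposite strand, which had 7646 unscaled counts with Cpeb4 shRNA and 5194 with control shRNA. Helicase and polymerase differed by unequal amounts, with 0.633 Twnk counts per Polg count in the Cpeb4 shRNA library and 0.382 in the control library, a 1.66-fold difference (1.56 to 1.75).

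**Figure D3:**
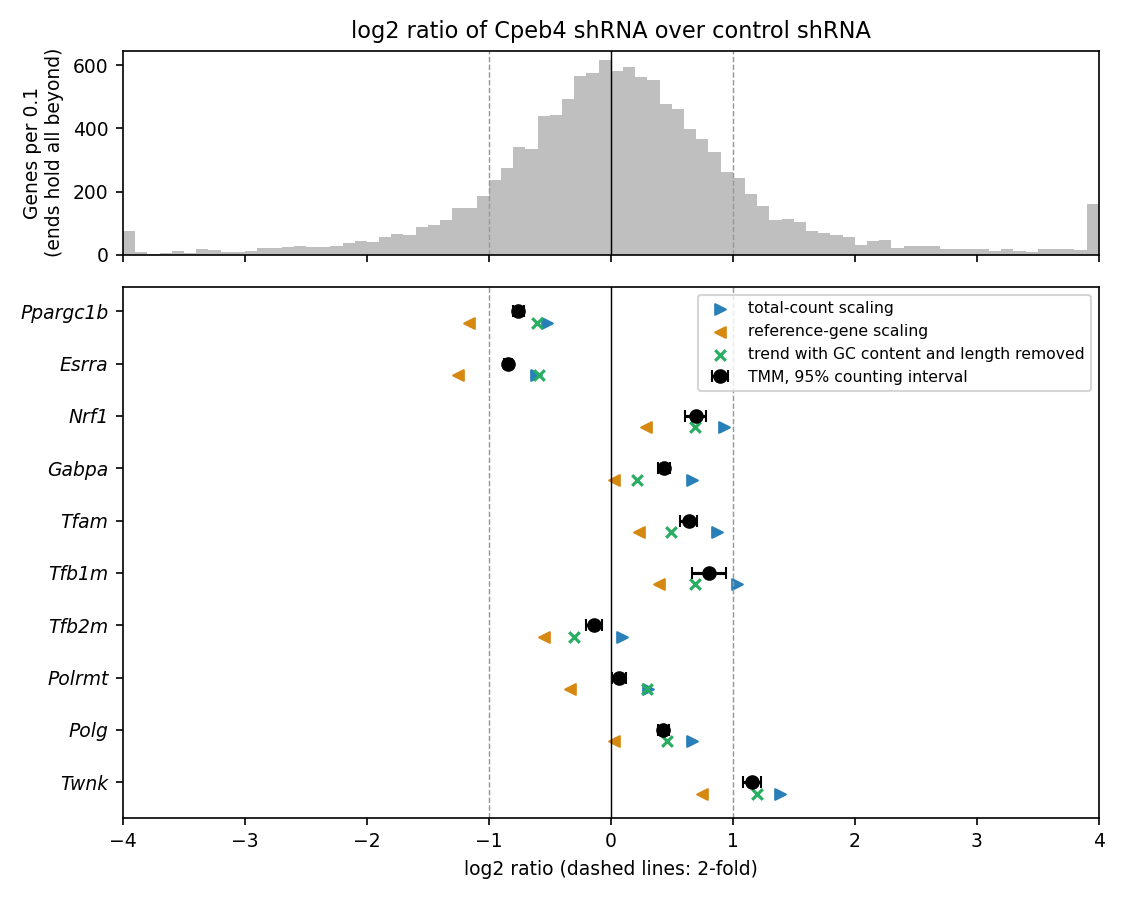
The upper panel gives the distribution of log2 ratios (Cpeb4 shRNA level over control level) of the 12086 genes past the filter, with values beyond 4 in the end bars. The lower panel gives each regulator's ratio with its 95% counting interval (black) and the value under other scalings (triangles) or without the GC and length trend (crosses). Ppargc1b and Esrra stay below 0 and Twnk above 0 at each marker, while Polrmt and Tfb2m lie on both sides.

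Ratios between 2 regulators within a library do not depend on scaling. Set against Ppargc1b, the other 8 regulators apart from Esrra had more counts per Ppargc1b count in the Cpeb4 shRNA library than in the control library. For each Ppargc1b count there were 0.843 Twnk counts in the Cpeb4 shRNA library and 0.224 in the control library, a 3.77-fold difference (3.56 to 3.99). The corresponding difference was 2.63-fold for Tfam (0.607 against 0.231 counts) and 2.74-fold for Nrf1 (0.433 against 0.158 counts). It was smallest for Tfb2m, at 1.53-fold (1.45 to 1.62). Some pairs kept a near-constant ratio of counts, among them Gabpa and Polg. There were 0.861 Gabpa counts per Polg count in the Cpeb4 shRNA library and 0.857 in the control library (counting interval of the fold 0.959 to 1.05). With the trend of GC content and length removed, these 2 genes lay apart, Gabpa at 0.22 and Polg at 0.46.

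Levels can be compared between genes only per length, and for this counts were divided by the summed exon length of each gene in GENCODE M21 and expressed as TPM, a length-scaled share of the library, within each library. Esrra and Ppargc1b were the most abundant regulators in both libraries, at 73.1 and 58.2 TPM in the Cpeb4 shRNA library and 110 and 82.2 TPM in the control library. Nrf1 and Tfb1m were the least abundant in both, at 9.78 and 11.7 TPM in the Cpeb4 shRNA library and 5.05 and 5.61 TPM in the control library. Twnk took the third place in the Cpeb4 shRNA library, at 48.8 TPM, and the sixth in the control library, at 18.3 TPM. Below it in the Cpeb4 shRNA library came Gabpa at 46.8, Tfb2m at 42.2, Polrmt at 35.8, Tfam at 31.7 and Polg at 28.8 TPM. All neighbours in that order were apart by their exact Poisson intervals, which cover counting error only. In the control library the order was Tfb2m at 38.9, Gabpa at 28.9, Polrmt at 28.6, Twnk at 18.3, Polg at 17.9 and Tfam at 17.1 TPM. There the intervals of Gabpa and Polrmt overlapped, as did those of Twnk, Polg and Tfam as neighbours and those of Tfb1m and Nrf1. Summed exon length includes exons that these cells may not use, so the order of the genes and the distances between them are approximate.

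Among 20 partners and upstream regulators of these factors 15 were listed and 14 passed the filter, 13 of them above 0. Of these 4 were at least 2-fold higher, 1 was lower and 9 lay within 2-fold, with a median of 0.61. For comparison, the 2-fold rule took 14.6% of the 12086 filtered genes as higher and 11.8% as lower, and their median was 0.05. Scaled to reference genes, 9 of the 14 lay above 0 and the median was 0.21. Myc, a transcription factor that drives growth and also mitochondrial gene expression, had 147 CPM in the Cpeb4 shRNA library and 20.2 CPM in the control library (log2 ratio 2.86, 2.78 to 2.94). Kat2a, an acetyltransferase that acts on PGC-1 proteins, was next at 1.24. At the low end were Ppard, a lipid-sensing nuclear receptor, at -1.44 (13.4 against 36.3 CPM) and the antioxidant regulator Nfe2l2 at 0.02. Pprc1, the third member of the PGC-1 family, had 136 CPM in the Cpeb4 shRNA library and 71.4 CPM in the control library (0.94, 0.89 to 0.98), opposite in direction to Ppargc1b. It was named after its value was seen, as were both GABP partner subunits, Gabpb2 at 0.97 and Gabpb1 at 0.18. Ppargc1a, Esrrb, Esrrg, Prkaa2 and Pparg are not analysed here.

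Genes that maintain mitochondrial DNA alongside Polg and Twnk were higher in 11 of 17 cases by TMM scaling, though in 9 of 17 when scaled to reference genes. Of the 17, 3 were at least 2-fold higher, 0 were lower and 14 lay within 2-fold, with a median of 0.50. By that rule 14.6% of all genes past the filter were higher and 11.8% were lower. The helicase genes Pif1 (84.0 against 3.39 CPM, log2 ratio 4.63) and Dna2 (52.8 against 4.08 CPM, 3.69) were highest, and both proteins also work in the nucleus. The exonuclease gene Mgme1, with a ratio of 1.32, was the remaining gene past 2-fold and was named after its value was seen. The lowest were Mpv17 (20.1 against 35.8 CPM, -0.83), an inner membrane protein gene, and Tk2 (1944 against 1891 counts from the shallower library, -0.78), which encodes mitochondrial thymidine kinase. Mitochondrial transcription and RNA processing factors beyond the regulators centred on 0: of 25 past the filter, 11 were above 0, 14 below and 25 within 2-fold, with a median of -0.04, which was 0.20 under total-count scaling and -0.44 when scaled to reference genes. Elac2 (0.58), a tRNA-processing nuclease gene, and Pnpt1 (0.57), an exoribonuclease gene, were highest. Nsun4 (-0.93), which encodes an rRNA methyltransferase, and Fastk (-0.71) were lowest.

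Nuclear genes known as targets of ERRα, NRF1 or GABP mostly had ratios below 0, by less than 2-fold. Esrra, among the factors that name the list, was lower by TMM scaling, and Nrf1 and Gabpa were higher. Of 21 past the filter 19 had a ratio below 0, 1 was at least 2-fold lower, 0 were higher and 20 lay within 2-fold, with a median of -0.52, where 11.8% of all genes were at least 2-fold lower. The median stayed below 0 under total-count scaling, at -0.29, and under scaling to reference genes, at -0.93. Among the lower genes was Mfn2, a mitofusin gene of the outer membrane and a described ERRα target, with 134 CPM in the Cpeb4 shRNA library and 236 CPM in the control library (log2 ratio -0.82). The 2 genes above 0 by TMM scaling, both below it when scaled to reference genes, encode receptors of the outer membrane import channel, Tomm20 at 0.31 and Tomm22 at 0.05.

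The transcripts of the mitochondrial DNA itself, which Tfam, Tfb2m and Polrmt produce, did not follow Tfam. The 15 mitochondrially encoded genes together had 24175 CPM in the Cpeb4 shRNA library and 46976 CPM in the control library. Their share of all counts was 2.62% in the Cpeb4 shRNA library and 4.33% in the control library, and all 15 had a ratio below 0. The lowest were mt-Atp8 (-1.22) and mt-Co1 (-1.10), and the highest were mt-Co3 (-0.75) and mt-Nd3 (-0.41). For each Tfam count there were 530 mitochondrially encoded counts in the Cpeb4 shRNA library and 1602 in the control library. Nuclear copies of these genes can take some of the reads, and the sources used here do not state how the RNA was selected.

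**Figure D4:**
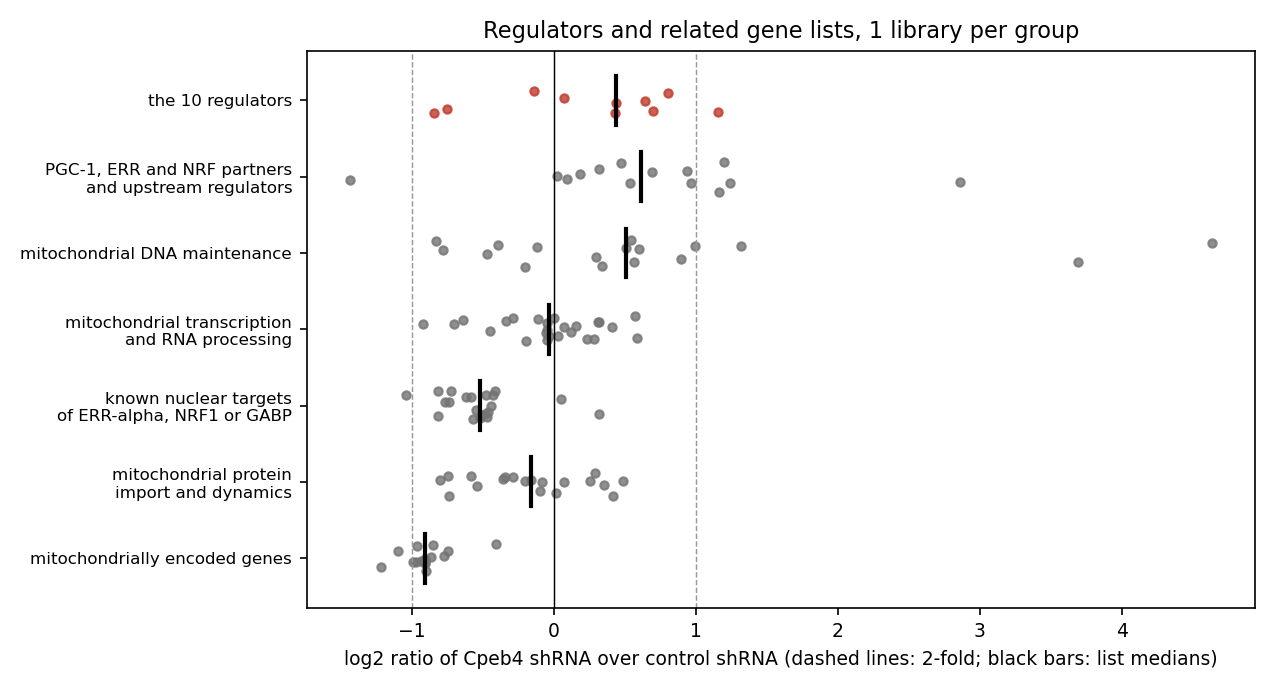
Log2 ratio (Cpeb4 shRNA level over control level) of each gene past the filter in the 10 regulators (coloured) and 6 related lists (grey), with the list median as a black bar. The medians are 0.43 for the regulators, 0.61 for partners and upstream regulators, 0.50 for mitochondrial DNA maintenance, -0.52 for known nuclear targets and -0.91 for mitochondrially encoded genes.

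Cpeb4 protein recognises cytoplasmic polyadenylation elements, so the letters TTTTAT and TTTTAAT (with U for T in the mRNA) were counted in the longest annotated 3′ UTR of each regulator. They were present in 8 of the 10, against 60.2% of 12459 genes, and Polrmt and Tfb1m held none. Since such elements act near the poly(A) signal, the last 200 bases were counted apart for the 9 regulators with at least that length. There 3 of 9 held the letters, against 29.1% of 11236 genes. The 3 were Ppargc1b, Esrra and Tfb2m, at 51, 78 and 101 bases from the annotated end. Sites of 30 bases are shown for the last pair, with the element in capitals.

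Esrra, chromosome 19, minus strand: acagagactctaTTTTAATgtatatttgct
Tfb2m, chromosome 1, minus strand: gatcagtttatcTTTTATtatgttgaagtg

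By TMM scaling these 3 genes had ratios below 0, but no direction can be given for Tfb2m, which lay above 0 under total-count scaling. Whether the letters and the ratios go together among so few genes was not tested. The wider set was genes past the filter with an annotated 3′ UTR of at least 200 bases. Those with the letters in the last 200 bases had a median log2 ratio of 0.09 (n = 2876). Those without had -0.02 (n = 6705). Binding of the protein was not measured.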

How the data were processed

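Counts per gene were deposited as whole numbers, 1 column per library. Reads were aligned with HISAT2 to mm10, per the submitters' processing notes. The sources used here name no counting tool, strand setting or annotation. Genes at 4 counts outnumbered those at 3 or 5 in both libraries, so the deposited counts may be estimates. Each of the 18987 genes has at least 1 count in both libraries.

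TMM factors (edgeR 4.0.16, R 4.3.3) were 1.08 for the Cpeb4 shRNA library and 0.922 for the control library. The 12086 genes that averaged 1 CPM or more were kept. Log2 ratios carry exact Clopper-Pearson 95% intervals, approximate if counts are estimates. PCR copies are not independent molecules, and intervals and floors cover counting error only. The median interval width was 0.16 log2 units. A size rule of 2-fold replaced a test. Coordinates and exon lengths came from GENCODE M21 (GRCm38), which holds 18935 of the identifiers. Promoters came from RefSeq (GRCm38.p6). The functions were tested on simulated data. Named genes were the 10 regulators, Cpeb4, and the 2 highest and 2 lowest of each related list, exceptions being marked. Macrophage markers, a check of the cell type, were all given. A gene that this rule takes is not reported here. Members, lists and motif letters were chosen with earlier results of these data known. With 2 libraries, no gene could be named for a similar pattern. Alternatives were other scalings (DESeq2 1.42.0 among them), filters, pseudocounts, thinning and size rules. Correction for GC content and length and the counts of one member per another were added after seeing the data.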

Additional observations from a re-analysis of the deposited data

How the results depend on the processing

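No paired analysis was possible because the groups hold a single library apiece, without any test. A filter cannot change a regulator's ratio. Of 90 values of single regulators under the 9 alternatives that can, 63 moved by less than the counting error, 25 moved by more with the sign kept and 2 changed sign: Tfb2m at 0.093 with total-count scaling and Polrmt at -0.34 with reference-gene scaling. Total-count scaling adds 0.23 to every log2 ratio, and scaling to 20 reference genes subtracts 0.41 (a shift of -0.41). By TMM scaling the reference genes themselves ran from -1.96 to 1.93, with 11 above 0 and 9 below. That scaling therefore rests on genes that differ between the libraries. The regulators' median was 0.67 with total-count scaling and 0.026 with reference-gene scaling. At least 2-fold higher regulators numbered 2 with total-count scaling, 0 with reference-gene scaling, 4 at 1.5-fold and 0 at 4-fold. At least 2-fold lower regulators numbered 2 with reference-gene scaling (Ppargc1b at -1.16 and Esrra at -1.25) and 2 at 1.5-fold. In the whole table, the 2-fold rule with TMM scaling took 1765 of 12086 genes as higher and 1421 as lower. Total-count scaling put 2510 genes higher and 1027 lower, and scaling to reference genes put 1057 higher and 2635 lower. Dropping the filter put 3217 higher and 2930 lower, and a filter at 10 CPM put 1025 higher and 907 lower. The 1.5-fold rule put 3191 higher and 2674 lower, whereas the 4-fold rule put 582 higher and 426 lower. The share higher among 2-fold genes was 55.4% by TMM, 71.0% with total-count scaling and 28.6% with reference-gene scaling. Gabpa and Polg lay at 0.03 and 0.02 with reference-gene scaling, so their direction is weakly set. Removing the trend with GC content and length gave -0.60 for Ppargc1b, -0.59 for Esrra, 0.22 for Gabpa, 0.49 for Tfam, 0.30 for Polrmt and -0.30 for Tfb2m. Each shift follows from how its alternative is built.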

Other observations

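Genes for mitochondrial protein import, folding and dynamics lay within 2-fold between the libraries by TMM scaling. Of 19 past the filter 7 had a log2 ratio above 0 and 12 below, and the median was -0.16. Timm50, which encodes a presequence receptor of the inner membrane translocase (60.1 CPM in the Cpeb4 shRNA library, 42.9 CPM in the control library, log2 ratio 0.49), and the chaperonin gene Hspe1 (187 against 140 CPM, 0.42) were highest. The lowest were Mff (73.8 against 129 CPM, -0.80), whose product recruits the fission GTPase, and Opa1 (107 against 179 CPM, -0.75), which encodes the inner membrane fusion GTPase. The direction of the list turns with the scaling: 11 of 19 genes lay above 0 under total-count scaling (median 0.07) and 2 of 19 when scaled to reference genes (median -0.57).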
